A study of Mus musculus with 9 samples.

Results

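Arginine handling was followed through 4 genes: the arginases Arg1 and Arg2 (UniGene cluster Mm.3506), the inducible nitric oxide synthase Nos2 and the cationic amino acid transporter Slc7a2 (Mm.4676). They were chosen by gene function from a list of 7 UniGene cluster numbers, and 4 of the 17810 clusters on the arrays matched it. The clusters listed for the polyamine enzymes Odc1 (Mm.34102), which makes putrescine from ornithine, and Sat1 (Mm.2734), which acetylates spermidine and spermine, were not analysed here. Nor was that for Ass1 (Mm.3217), which recycles citrulline towards arginine. The list rests on function, but it was drawn up with earlier results of these data known, in which the Arg1 cluster had been singled out for its high level in the combination. The levels of Arg1 are therefore a description and carry no test, and the other genes were tested with that origin of the list in mind. Gene symbols are those of the list, since the deposited table identifies its rows by cluster number alone.

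The cells were macrophages grown from the bone marrow of C57BL/6 mice, 3 arrays per group. All groups were grown with M-CSF, a macrophage growth factor, at 30 ng/ml, and were stimulated for 3 days starting on day 4. One group (dexa+IL4) was given the synthetic glucocorticoid dexamethasone at 5e-07 M together with interleukin 4 at 10 ng/ml. Another (cmB16F1) was given medium conditioned by B16F1, a mouse melanoma line, and the last was given both (here the combination). Dexamethasone and interleukin 4 were always given together, and a group in plain medium was not analysed here, so neither agent can be told apart from the other and additivity was not tested. The labels do not say whether the arrays of a group came from separate animals or cultures, so p-values measure only the spread between these samples, which may be technical. Macrophage markers could not be looked up, because no table at hand pairs the cluster numbers with genes, so the labelled cell type was not checked.

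Macrophages can send arginine along competing routes. Arginase splits it into ornithine and urea, and ornithine is the precursor of polyamines and proline. Inducible nitric oxide synthase instead turns it into nitric oxide and citrulline. In mouse macrophages arginase 1 is a classic marker of alternative activation, driven by interleukin 4, and Nos2 of activation by interferon gamma with microbial products. Arginine reaches these enzymes through transporters of the plasma membrane.

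Arg1 and Slc7a2 varied widely between the groups, while Arg2 and Nos2 lay at the low end of the scale in all of them. Values are log2 probe set values, which ran from 5.86 to 14.2 over all arrays. The low end was judged by 27 control sets for bacterial transcripts, which mouse cells do not make. These sets ranged from 6.09 to 7.00, and a group mean inside that range is not told apart from background. Of all 17810 clusters, 11318 had at least 1 group mean above 7.00. The rest had none, like Arg2 and Nos2, so such low means were common on these arrays. A group mean within 0.5 of 14.2 is called near the top of the scale, where the size of a difference is uncertain. Levels of different genes are not compared, because each probe set has its own response. In bulk RNA, a smaller share of expressing cells and less RNA per cell cannot be told apart.

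**Figure D1:**
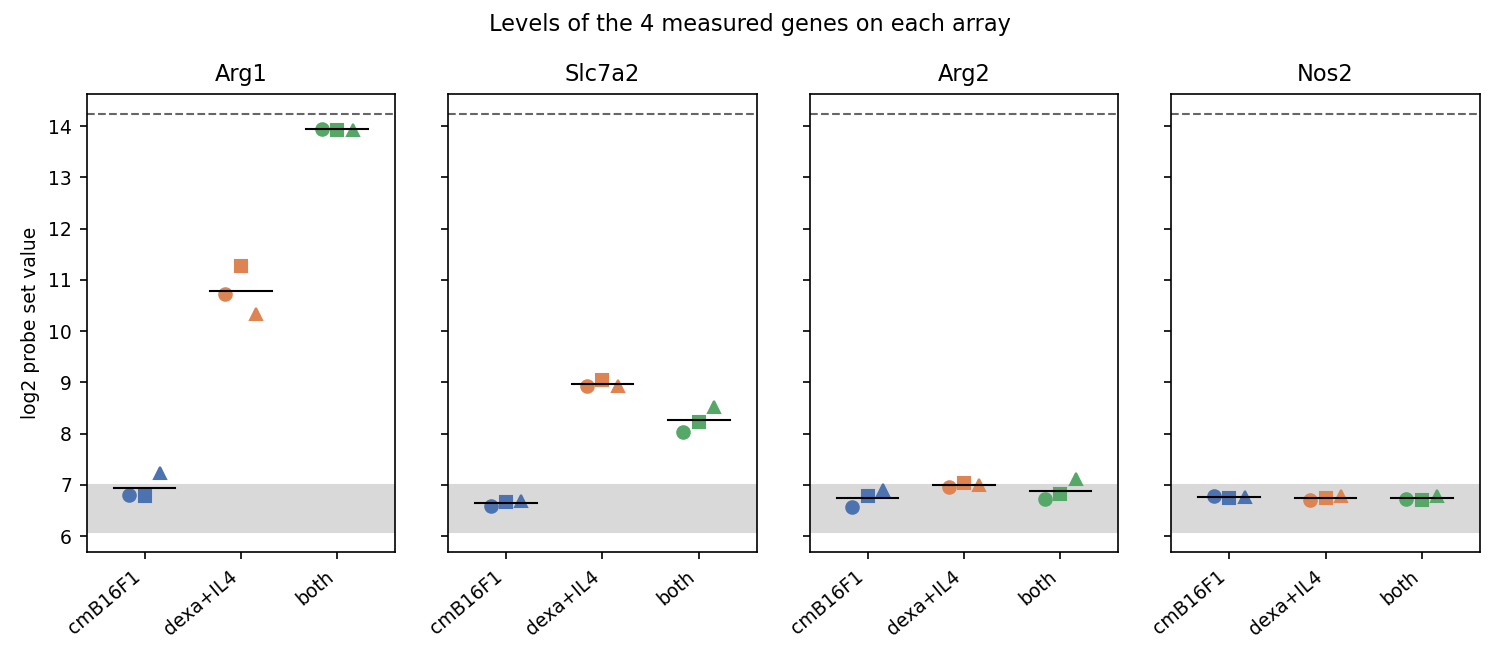
Log2 probe set values (vertical axis) of Arg1, Slc7a2, Arg2 and Nos2 in the 3 groups, with 1 point per array (circle, square and triangle for replicates 1, 2 and 3) and a line at the mean of the 3 arrays. The grey band is the range of the bacterial controls, 6.09 to 7.00, and the dashed line the highest value of any array, 14.2; Arg1 spans most of the scale, and all 9 Nos2 points lie in the band.

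Arg1, the cytosolic arginase, was at 6.80, 6.79 and 7.23 on the cmB16F1 arrays. In dexa+IL4 it was at 10.72, 11.27 and 10.33. In the combination it was at 13.94, 13.93 and 13.93. The 3 groups did not overlap, and the order was the combination, then dexa+IL4, then cmB16F1. The same order without overlap was found in 253 of all clusters (1.42%). Arg1 had been singled out for its high level in the combination, so this share is a description and no support.

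The Arg1 mean in cmB16F1, 6.94 ± 0.25 (SD, n = 3), lay within the range of the bacterial controls. On its replicates 1 and 2 Arg1 was above 25 of the 27 control sets, and on replicate 3 it was 0.27 above the highest of them. Folds against cmB16F1 are therefore lower bounds. On each cmB16F1 array the higher of Arg1 and the brightest bacterial set was taken as its value. On that basis Arg1 was higher by at least 13.3-fold in dexa+IL4 and by at least 119-fold in the combination. On the log2 scale these bounds are 3.74 and 6.90. They allow for background alone, with all arrays at the deposited scaling, and not for the spread between arrays. Without dexa+IL4 replicate 2 the measured dexa+IL4 difference was 3.59, below its bound. With arrays scaled to their hybridization controls the measured combination difference was 6.78, also below its bound. The Arg1 mean was 10.77 ± 0.47 in dexa+IL4 and 13.93 ± 0.00493 in the combination, a difference of 3.16 on the log2 scale.

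The combination mean of Arg1 lay 0.29 below the highest value of any array, so its distance from dexa+IL4 is uncertain in size. In that group 6 clusters were near the top of the scale, with a median SD of 0.059 between arrays, and the SD of Arg1 was the lowest of the 6. In dexa+IL4, further down the scale, Arg1 had an SD of 0.47, against a median of 0.044 over all clusters. Replicate 2 was the highest and replicate 3 the lowest of these 3 arrays.

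Slc7a2 encodes CAT-2, a transporter that carries arginine, lysine and ornithine into the cell. On the cmB16F1 arrays it was at 6.59, 6.66 and 6.69, below the highest bacterial control of each array. In dexa+IL4 it was at 8.94, 9.04 and 8.92. In the combination it was at 8.03, 8.23 and 8.53. The groups did not overlap, and here dexa+IL4 was highest, the combination intermediate and cmB16F1 lowest. This order without overlap was found in 384 clusters (2.16%).

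Between the combination and dexa+IL4, Slc7a2 and Arg1 therefore differed in opposite directions. Slc7a2 was 1.63-fold lower in the combination, at 8.26 ± 0.25 (SD, n = 3) against 8.97 ± 0.07. The log2 difference was -0.70 (SE 0.102, 95% confidence interval -0.93 to -0.48, limma with Benjamini-Hochberg adjusted p = 0.00127), and all 3 arrays of the combination lay below all 3 of dexa+IL4. Differences of this size or more, in either direction, were found in 2.53% of clusters. Both means lay more than 1 log2 unit above the highest bacterial control.

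Against cmB16F1, Slc7a2 was higher in both groups that received dexamethasone and interleukin 4. In the combination it was at least 2.49-fold higher, with a measured difference of 1.62 (SE 0.102, limma adjusted p = 5.195e-06). Its level in dexa+IL4 was higher by at least 4.05-fold, with a measured difference of 2.32 (limma adjusted p = 2.966e-07). The bounds are taken against the bacterial controls as for Arg1, because the cmB16F1 mean, 6.65 ± 0.05 (SD, n = 3), lay within their range. They too allow for background alone, not for the spread between arrays or another scaling. The comparisons share arrays and are not independent of one another. The 3 Slc7a2 calls passed the threshold under all 15 alternatives run in each comparison, with a highest limma adjusted p of 0.00724.

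Arg2, the mitochondrial arginase, was at 6.57, 6.79 and 6.90 in cmB16F1. In dexa+IL4 it was at 6.95, 7.03 and 7.00. In the combination it was at 6.72, 6.82 and 7.12. All 3 group means were inside the bacterial range, though Arg2 exceeded every control set of the same array on dexa+IL4 replicates 2 and 3 and on combination replicate 3. The combination overlapped both other groups, while the dexa+IL4 arrays all lay above the cmB16F1 arrays.

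The Arg2 difference between dexa+IL4 and cmB16F1 was 0.24 (95% confidence interval 0.01 to 0.47), and it did not pass the test (unadjusted p = 0.0409, limma adjusted p = 0.119). The combination differed from dexa+IL4 by -0.11 (interval -0.34 to 0.12) and from cmB16F1 by 0.13 (interval -0.10 to 0.36), with limma adjusted p of 0.545 and 0.482. These values depended on single arrays: without combination replicate 3 they were -0.22 and 0.02, and without its replicate 1 they were -0.02 and 0.22. Leaving out cmB16F1 replicate 1 gave 0.04 against that group, and leaving out its replicate 3 gave 0.21. Between arrays of equal number the combination was above cmB16F1 by 0.15, 0.04 and 0.22. A fit blocked on replicate number did not call this difference either (limma adjusted p = 0.230). That block was not confined to this comparison. With arrays scaled to their hybridization controls, which moved the median difference of all clusters between the combination and dexa+IL4 to -0.26, Arg2 passed in that comparison at -0.36 (limma adjusted p = 0.0162, within a range from 0.0162 to 0.913 over 14 alternatives). That scaling also turned its difference from cmB16F1 to -0.08. Since the means lie in the background range, these intervals limit the change in signal, not in the transcript.

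Nos2, which makes nitric oxide, was at 6.78, 6.74 and 6.76 in cmB16F1. In dexa+IL4 it was at 6.71, 6.75 and 6.78. In the combination it was at 6.73, 6.70 and 6.77. Each of these 9 values lay below the highest bacterial control of its own array, by 0.12 to 0.29, and the groups overlapped throughout. On 7 of the 9 arrays 25 of the 27 control sets were lower, and on the others 23 and 26.

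**Figure D2:**
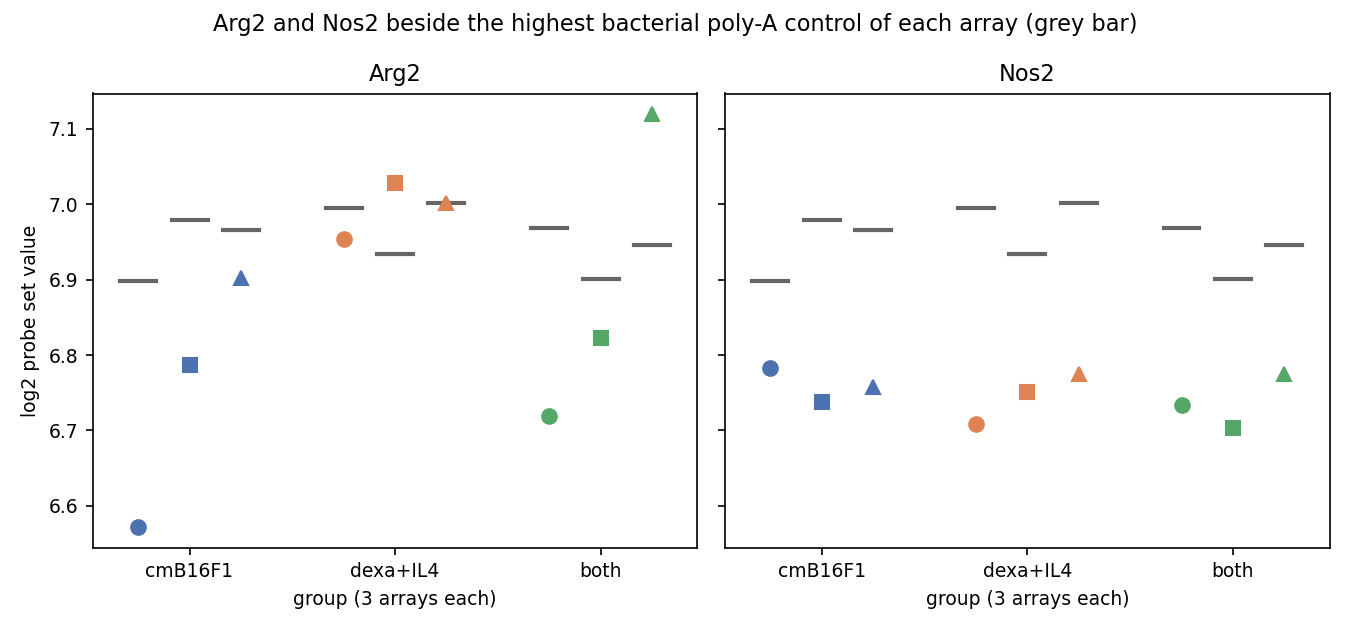
Log2 probe set values (vertical axis) of Arg2 and Nos2 on each of the 3 arrays per group (circle, square and triangle for replicates 1, 2 and 3), with a grey bar at the highest of the 27 bacterial control sets of the same array. Every Nos2 point lies under its bar, and Arg2 lies above it on 3 arrays, by at most 0.17.

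The Nos2 differences did not pass the test in any comparison. The 95% confidence intervals ran from -0.08 to 0.06 for the combination against dexa+IL4, from -0.09 to 0.05 against cmB16F1, and from -0.09 to 0.06 between the single treatments (limma adjusted p = 0.918, 0.743 and 0.786). With the gene at background in all groups, a change in Nos2 transcript that stays within background was not detectable on these arrays. With arrays scaled to their hybridization controls, the Nos2 differences of the combination were -0.26 against dexa+IL4 and -0.23 against cmB16F1, outside these intervals, where the median of all clusters moved to -0.26 and -0.20. They did not pass there (limma adjusted p = 0.0556 and 0.152, the lowest of 14 alternatives in each comparison, which reached 0.965 and 0.953). The intervals thus hold for the deposited scaling, and they do not show that the level of Nos2 is the same.

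Of the 3 genes tested, 1 passed in each comparison, and it was Slc7a2 every time. It was lower in the combination than in dexa+IL4, where 17.9% of all clusters passed. It was higher in the combination than in cmB16F1, where 14.1% passed, and higher in dexa+IL4 than in cmB16F1, where 25.0% passed. Arrays of the 2 groups did not overlap for 2 of the 4 genes in either comparison of the combination, Arg1 and Slc7a2, against 36.1% of all clusters for dexa+IL4 and 28.5% for cmB16F1. Between the single treatments they did not overlap for 3 of the 4, the same genes and Arg2, against 44.3%. The median log2 difference of the 4 genes was -0.06, 0.88 and 1.28 in these comparisons, and that of all clusters was -0.0026, 0.01 and 0.02. With so few genes, these counts and medians describe the members and set nothing apart.

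**Figure D3:**
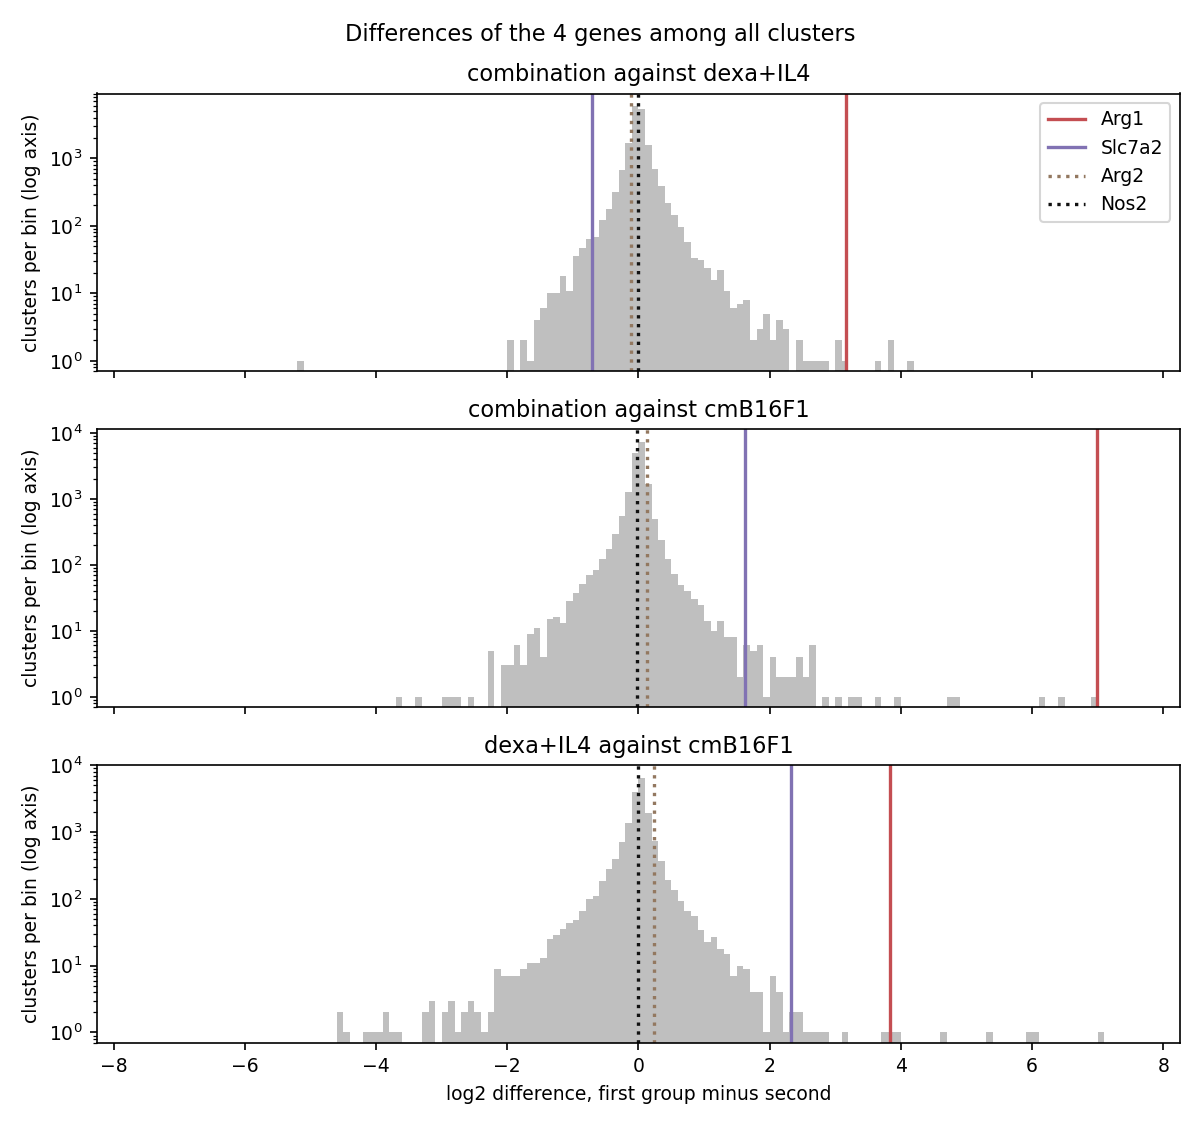
Log2 differences (horizontal axis, first named group minus second) of all 17810 clusters as grey bars, counted in bins of 0.1 on a log axis, with lines for the 4 genes in each of the 3 comparisons. Arg1 lies far to the right in each panel, Slc7a2 lies left of 0, at -0.70, in the upper panel and right of it in the others, and Arg2 and Nos2 lie near the centre.

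The pattern closest to that of Arg1 over the 9 arrays was found in cluster Mm.231288. Closeness was the root mean square difference of log2 values after each cluster was centred on its own mean. It was taken over the 11317 other clusters with a group mean above the bacterial controls. The difference was 0.89 for Mm.231288 and 1.04 for the next, Mm.222465, against a median of 2.87. The closest of so many clusters must lie below the median, so this contrast does not measure how alike the patterns are. Mm.231288 was at 6.99 ± 0.02 in cmB16F1, 12.31 ± 0.05 in dexa+IL4 and 13.45 ± 0.07 in the combination (SD, n = 3). Mm.222465 was at 8.38 ± 0.47, 10.39 ± 0.42 and 13.13 ± 0.24. In cmB16F1 the mean of Mm.231288 lay within the bacterial range. No such search was made for Nos2, whose group means all lay within the bacterial range.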

How the data were processed

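The authors deposited normalized log2 values, 1 per probe set, from 1-colour Affymetrix arrays hybridised with biotinylated cRNA (per the labels' protocols). That the scale is log2 was inferred from the range of the values. How the arrays were normalized and summarised, and with which chip definition, is not given in the sources used here. Array medians lay between 7.19 and 7.25. The precision is limited by the number of arrays.

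Groups were compared in R 4.3.3 using limma 3.58.1 (lmFit, eBayes with trend, group as the only term, all 9 arrays). P-values were adjusted over 17829 features, the clusters and 19 mouse control sets, with a threshold of 0.05. Where a cluster had 2 sets, that with the higher mean was used. The procedure was tested on simulated data with independent noise on each array. Those data lacked the correlation between arrays of equal number given below, so that test does not cover it. The members, lists and tests were chosen with earlier results of these data known. Named were all measured members and the 2 clusters closest in pattern to Arg1. Lists of other arginine genes and of cell markers were not used, because the gene table named 0 of the clusters.

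Equal replicate numbers were taken as pairs only between the combination and cmB16F1. There, deviations from the group means correlated across clusters at 0.617, 0.565 and 0.662, each over the limit of 0.1. For replicates 1, 2 and 3 of dexa+IL4 they correlated at 0.224, -0.067 and 0.1155 with the combination. With cmB16F1 they correlated at 0.236, -0.023 and 0.167. In both of these comparisons only replicate 2 was under the limit, so some shared structure was present there too. Pairs were used only for the differences between arrays of equal number. The main tests and intervals had group as the only term and did not model the correlation between arrays of equal number. The replicate block was an alternative, and it was applied to the comparisons with dexa+IL4 as well. Alternatives changed the scaling, filter, variance model, weights, arrays fitted, block and probe set, or left out each array in turn.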

Additional observations from a re-analysis of the deposited data

How the results depend on the processing

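The differences of Arg1 and Slc7a2 kept their direction under all 15 alternatives of each comparison, and the 3 Slc7a2 calls held. The Slc7a2 difference ran from -0.96 to -0.59 for the combination against dexa+IL4, and that of Arg1 from 2.90 to 3.41. The ends -0.96 and 2.90 came from scaling to hybridization controls, where the median difference of all clusters moved to -0.26. That scaling moved the Arg1 difference between the combination and cmB16F1 from 6.99 to 6.78, and the median of all clusters there to -0.20. It raised the count of tested genes that passed between the combination and dexa+IL4 from 1 to 2, adding Arg2, and turned the Arg2 difference from cmB16F1 to -0.078. With the replicate number as a block the count between the single treatments was 2 instead of 1, adding Arg2 at 0.24 (limma adjusted p = 0.0244, range 0.0244 to 0.336 over 14 alternatives). These groups were not taken as paired, and the block changed no other member's call. The cause was not tested. Scaling to hybridization controls also gave Nos2 differences of the combination of -0.26 and -0.23. Other Nos2 differences turned sign, without passing: between the combination and dexa+IL4 to 0.0081 with array weights (-0.026 to 0.0095 leaving out 1 array), and between the single treatments to 0.0011 with median centring and 0.029 with scaling to hybridization controls (-0.03 to 0.0032 leaving out 1 array). The filter on dim probe sets dropped Arg2 and Nos2. Of all clusters, 3184 passed between the combination and dexa+IL4, against 7104 with scaling to hybridization controls and 2044 and 2096 without dexa+IL4 replicate 1 or 3. Between the single treatments 4454 passed, against 1893 with that scaling. Background limits Arg2 and Nos2 in all groups, and Arg1 and Slc7a2 in cmB16F1.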
